A study of Mus musculus with 12 samples.

Results

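The 6 genes described here, Ccl1, Ccl3, Ccl4, Ccl5, Xcl1 and Cxcl10, encode chemokine ligands, and were taken by gene symbol from a table of 11022 genes measured by RNA sequencing in cultured mouse cytotoxic T lymphocytes (CTL). All 6 symbols were found, and all 12 samples of the series were used. The cells came from P14 mice (strain label LCMV-P14 TCR transgenic), whose CD8 T cells carry a transgenic T cell receptor (TCR) for gp33-41, a peptide of the lymphocytic choriomeningitis virus glycoprotein. Every group shared the same history: 48 h of activation with gp33-41 in interleukin 2 (IL-2) and interleukin 12, further culture in IL-2 at 20 ng/mL to day 7, and 1 h of rest. The Unstimulated group (n = 3) was kept in IL-2 alone. The TCR group (n = 3) received 100 ng/mL gp33-41 peptide for 4 h. The TCR+PI3Kdi group (n = 3) received the peptide together with 10 µM IC87114, which blocks the lipid kinase PI3K p110δ, and the TCR+MEKi group (n = 3) received it together with 2 µM PD184252, an inhibitor of MEK1/2, the kinases that activate ERK1/2. DMSO served as the vehicle control. The replicates of each group were grown from lymph nodes or spleens of 3 mice, and no culture with an inhibitor but without peptide was analysed here.

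Chemokines are small secreted proteins that guide cells bearing the matching G protein-coupled receptor. CCL3 and CCL4, also called MIP-1α and MIP-1β, and CCL5, also called RANTES, are inflammatory CC chemokines, and CCL3 and CCL5 bind CCR1. XCL1 binds XCR1, which marks cross-presenting dendritic cells, and CCL1 binds CCR8. CXCL10 is a ligand of CXCR3 and a classical interferon-induced chemokine. Antigen-triggered CD8 T cells are known producers of CCL3, CCL4, CCL5 and XCL1.

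Values are FPKM (fragment counts scaled by exon length and library size), which can be set side by side between genes. The effective depth, estimated from the steps between low values, ran from 7790000 to 13250000 reads per sample. All 6 CD8 T cell markers looked for were in the table, with Gzmb (granzyme B) at a mean of 8740.3 to 13005 FPKM in the 4 groups. Of 19 markers of other blood cell types looked for, all B cell, macrophage and neutrophil markers were absent from the table, from which low-count genes had been removed. Only 4 of the 19 (Cd4, Zbtb46, Klrb1c and Mcpt8) were in it. Summed, these 4 lay at 10.1 to 13.3 FPKM in Unstimulated cells, 22.7 to 28.5 in TCR, 15.96 to 19.2 in TCR+PI3Kdi and 10.97 to 14.2 in TCR+MEKi cells. The sum moved in the same direction as most chemokines, at far lower levels, and its part in the results was not tested. The 4 markers did not move alike. Mcpt8, the largest of them in TCR cells, averaged 18.1 FPKM there, 10.8 in TCR+PI3Kdi and 7.43 in TCR+MEKi cells. With TCR stimulation Cd4, Zbtb46 and Mcpt8 rose, while Klrb1c fell from a mean of 5.39 to 1.79 FPKM. Zbtb46 averaged 3.49 FPKM in TCR and 3.11 in TCR+MEKi cells. Cd4 averaged 2.69 FPKM in TCR and 2.94 in TCR+PI3Kdi cells.

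Of the 6 genes, 4 lie on chromosome 11 of the mm10 (GRCm38) genome. Ccl5 (83525778 to 83530518, minus strand), Ccl3 (83647844 to 83649355, minus strand) and Ccl4 (83662584 to 83664683, plus strand) form a cluster in which Ccl3 and Ccl4 are separated by 13228 bases. Ccl1 (82176657 to 82179812, minus strand) lies 1345965 bases before Ccl5. Xcl1 is on chromosome 1 (164931644 to 164935527, minus strand) and Cxcl10 on chromosome 5 (92346638 to 92348882, minus strand). These are the spans of the principal coding transcripts in GENCODE. Of the 100-base stretches of their transcripts, 0% of those of Ccl1, Ccl3, Ccl4 and Ccl5, 0.236% of those of Xcl1 and 1.39% of those of Cxcl10 also occurred in another gene. RefSeq also lists a predicted Ccl4 transcript model that starts at 83648624, within Ccl3 on the opposite strand. The libraries were made with a stranded kit, but the sources do not say if reads were counted by strand, so for that stretch reads of Ccl3 and Ccl4 may not be separated.

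The promoters are printed because these genes rose together on stimulation, by very different amounts. The RefSeq table (GRCm38.p6) held 4 of the 6 genes (Ccl1, Ccl3, Xcl1 and Cxcl10), and the 250 bases before each start are given 5′ to 3′ on the strand of the gene. Capitals mark matches, on either strand, to 4 motifs. These are GGAAA, the core bound by NFAT, the AP-1 element TGANTCA, an NF-κB pattern of GGGA followed by CC after 4 bases of any kind, and an interferon response pattern of GAAA repeated after 2 bases of any kind. The windows are chr11:82179813-82180062 for Ccl1, chr11:83649379-83649628 for Ccl3, chr1:164935523-164935772 for Xcl1 and chr5:92348890-92349139 for Cxcl10, all on the minus strand.
Ccl1: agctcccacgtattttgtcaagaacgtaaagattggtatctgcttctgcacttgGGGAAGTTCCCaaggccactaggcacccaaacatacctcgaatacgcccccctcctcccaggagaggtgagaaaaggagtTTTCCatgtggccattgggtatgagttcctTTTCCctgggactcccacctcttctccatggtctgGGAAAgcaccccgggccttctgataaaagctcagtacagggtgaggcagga
Ccl3: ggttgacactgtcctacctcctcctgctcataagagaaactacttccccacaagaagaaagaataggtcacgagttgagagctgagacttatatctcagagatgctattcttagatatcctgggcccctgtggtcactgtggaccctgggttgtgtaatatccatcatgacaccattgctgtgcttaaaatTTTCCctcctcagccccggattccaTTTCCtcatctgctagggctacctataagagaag
Xcl1: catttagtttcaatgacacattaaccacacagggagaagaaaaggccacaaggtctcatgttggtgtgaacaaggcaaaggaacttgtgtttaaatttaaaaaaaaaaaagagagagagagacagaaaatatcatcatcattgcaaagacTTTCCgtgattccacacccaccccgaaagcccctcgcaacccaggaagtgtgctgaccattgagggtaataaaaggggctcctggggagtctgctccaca
Cxcl10: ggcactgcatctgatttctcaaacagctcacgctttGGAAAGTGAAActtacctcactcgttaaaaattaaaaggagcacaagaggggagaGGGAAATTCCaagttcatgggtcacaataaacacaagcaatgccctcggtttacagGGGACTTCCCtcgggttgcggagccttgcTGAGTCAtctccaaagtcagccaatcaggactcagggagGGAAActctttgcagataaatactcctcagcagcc

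The Cxcl10 window held 1 match to the interferon response letters, 213 bases before the start and overlapping a GGAAA, 1 AP-1 match 74 bases before the start, and 2 NF-κB matches at 159 and 103 bases before the start, of which the first overlaps a GGAAA. The Ccl1 window held 3 GGAAA matches, 116, 86 and 51 bases before the start, and 2 NF-κB matches at 196 and 195 bases that overlap in a single run. In the Ccl3 window there were 2 GGAAA matches, 59 and 34 bases before the start, and in the Xcl1 window 1 at 100 bases. Among 32851 promoter windows of the same length, 55.6% held GGAAA, 17.6% the NF-κB letters, 6.75% the AP-1 letters and 2.98% the interferon response letters. A GGAAA is thus common, and a match is a description of letters, not of binding.

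Unstimulated CTL held little mRNA of these chemokines, and the order of their levels differed from that after stimulation. The summed FPKM of the 6 genes was 51.6 ± 2.32 (mean ± SD, n = 3, as for all values below), which was 0.0107% of the FPKM of all genes. Ccl4 came first at 28.3 ± 1.48 FPKM, followed by Ccl5 at 15.5 ± 2.09, Ccl3 at 5.76 ± 1.03, Cxcl10 at 1.02 ± 0.243, Ccl1 at 0.563 ± 0.168 and Xcl1 at 0.490 ± 0.282. Only the last neighbours in this order, Ccl1 and Xcl1, overlapped between cultures. Their levels rest on about 12 reads for Ccl1 and 9 for Xcl1 over the 3 Unstimulated libraries, so they are the least precise here.

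The first comparison asked which of these mRNAs change when CTL meet their antigen again. In the TCR group all 6 were higher than in the Unstimulated group beyond both thresholds (limma, Benjamini-Hochberg adjusted p under 0.05 over all 11022 genes, and more than 2-fold), where 8.87% of all genes were called higher and 20.0% in either direction. The median log2 fold change of the 6 was 10.49, against -0.01 over all genes. In bulk cultures a larger share of producing cells and more mRNA per cell cannot be told apart. The fold changes are on the log2(FPKM + 0.1) scale, which understates those of genes that start low.

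Of the clustered genes, Ccl3 read 6.09, 4.61 and 6.58 FPKM in the Unstimulated cultures and 20768, 18210.1 and 18245 in the TCR cultures. Ccl4 read 29.4, 28.8 and 26.6 FPKM before and 19762, 17182 and 16638 FPKM after peptide. The groups were far apart for both genes, and after stimulation Ccl3 and Ccl4 ranked as the genes with the 2nd and 3rd highest FPKM of the whole table. The ratio of means was 3312-fold for Ccl3 (11.68 on the log2 scale, SE 0.12, adjusted p = 2.33e-18) and 632-fold for Ccl4 (9.30, SE 0.09, adjusted p = 2.33e-18). Ccl5 read 14.4, 14.1 and 17.9 FPKM before and 568, 449.8 and 481 after stimulation, with no overlap. Its rise of 32.3-fold (5.01 on the log2 scale, SE 0.11, adjusted p = 1.99e-14) was the smallest of these 3 clustered genes, although it started above Ccl3.

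Xcl1, the XCR1 ligand, was near the limit of detection in the Unstimulated cultures at 0.53, 0.19 and 0.75 FPKM, and rose to 6959.8, 6626 and 6403 FPKM in the TCR cultures. The fold of means was 13598, with a 95% counting interval of 7163 to 29737 set by the few Unstimulated reads (log2 fold change 13.60, SE 0.27, adjusted p = 5.26e-15). Ccl1, the CCR8 ligand, read 0.71, 0.38 and 0.60 FPKM before and 6220.3, 5016 and 5529 after stimulation. Its fold of means was 9920.3 (counting interval 5679 to 19199, log2 fold change 13.07, SE 0.15, adjusted p = 1.40e-17). By the size of the fitted log2 change, Xcl1 was 2nd and Ccl1 3rd of all genes. The reads behind these intervals are approximate, since low values were not clean multiples of a read, and the intervals cover counting error only.

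Cxcl10, the CXCR3 ligand, stayed low. It read 1.30, 0.87 and 0.89 FPKM in the Unstimulated and 2.61, 2.01 and 3.52 FPKM in the TCR cultures. The groups did not overlap, and the rise was 2.66-fold (log2 fold change 1.31, SE 0.21, adjusted p = 5.32e-05). The call was lost with a pseudocount of 1 (log2 fold change 0.87) and on a scale with a common FPKM sum (0.93), where the adjusted p stayed under the threshold and the fold did not.

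**Figure D1:**
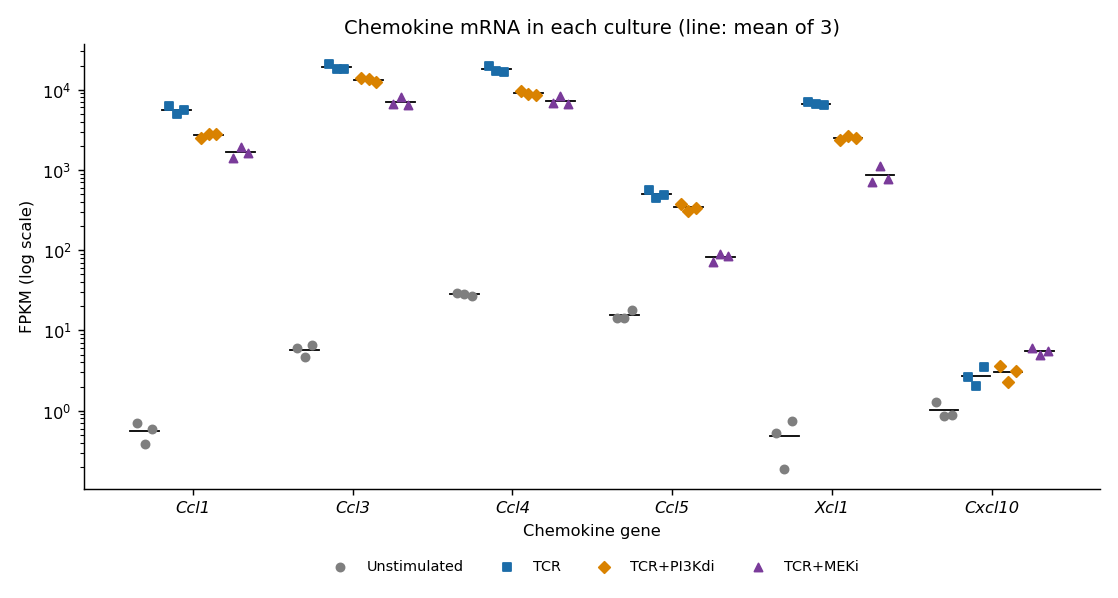
FPKM of the 6 chemokine genes in each of the 12 cultures, on a log scale, with points for cultures (3 per group) and a line at each group mean. Peptide raised Ccl1, Ccl3, Ccl4 and Xcl1 from under 30 FPKM to 5016 or more, Ccl5 from about 15.5 to 499.6 and Cxcl10 only from 1.02 to 2.71.

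After stimulation the order was Ccl3 (19074 ± 1467 FPKM), Ccl4 (17861 ± 1669), Xcl1 (6663 ± 280.3), Ccl1 (5588 ± 604), Ccl5 (499.6 ± 61.3) and Cxcl10 (2.71 ± 0.760). Ccl3 and Ccl4 overlapped between cultures, although Ccl3 was higher within each of the 3. Xcl1 and Ccl1 did not overlap. The 6 genes together rose to 49689 ± 3978 FPKM, or 7.76% of the FPKM of all genes.

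The next comparison asked how much of this response needs PI3K p110δ. With IC87114, Xcl1 and Ccl1 fell more than 2-fold, Ccl3, Ccl4 and Ccl5 fell by less, and Cxcl10 did not pass the test. Thus 2 of the 6 were called lower, where 1.38% of all genes were called lower and 1.88% in either direction. By adjusted p alone 5 of the 6 passed, beside 25.6% of all genes. The median log2 change of the 6 was -0.76, against 0.02 over all genes.

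Xcl1 read 2355, 2637 and 2520.5 FPKM with the PI3K inhibitor, all below the lowest TCR culture (6403). It fell 2.66-fold (log2 fold change -1.41, SE 0.27, adjusted p = 0.00167). This SE is pooled over all 4 groups, including Unstimulated cultures near the limit of detection. With the compared groups alone it was 0.09. For Ccl1 the inhibitor cultures read 2486, 2832 and 2778 FPKM, again below all TCR cultures, with a log2 fold change of -1.05 (SE 0.15, adjusted p = 0.000229). This is close to the 2-fold threshold, and the call was lost without TCR replicate 1 (-0.97), without TCR+PI3Kdi replicate 1 (-0.99), on the common-sum scale (-0.86) and after quantile normalisation (-0.42).

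Ccl4 read 9578, 8924 and 8533 FPKM with the PI3K inhibitor, so that no culture came near the TCR group. Its log2 fold change of -0.98 (SE 0.09, adjusted p = 6.19e-06) lay just inside the fold threshold, and passed it without TCR replicate 2 (-1.01), TCR replicate 3 (-1.03) or TCR+PI3Kdi replicate 1 (-1.03). Ccl3 kept more of its level, at 13936, 13681 and 12538 FPKM, with a log2 fold change of -0.51 (SE 0.12, adjusted p = 0.0063). Ccl5 read 379.6, 311 and 336 FPKM (log2 fold change -0.54, SE 0.11, adjusted p = 0.00274). For both, every inhibitor culture was below every TCR culture, by less than 2-fold in the mean. Cxcl10 read 3.64, 2.29 and 3.08 FPKM and overlapped the TCR group (log2 fold change 0.15, 95% interval -0.30 to 0.60, adjusted p = 0.634), and without TCR replicate 2 the sign turned (-0.04).

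The MEK comparison asked the same of the ERK pathway. With PD184252, Ccl1, Ccl3, Ccl4, Ccl5 and Xcl1 all fell more than 2-fold and Cxcl10 rose. So 5 of the 6 were called lower, beside 2.51% of all genes, and 1 was called higher, beside 0.980% (3.49% in either direction). By adjusted p alone 6 passed, beside 37.1% of all genes. The median log2 change of the 6 was -1.60, against 0.01 over all genes. Both inhibitor comparisons use the same TCR cultures.

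Xcl1 fell most, to 710.5, 1134 and 777 FPKM, a 7.62-fold decrease (log2 fold change -2.96, SE 0.27, adjusted p = 1.36e-06). Ccl5 fell to 70.9, 90.9 and 85.1 FPKM, a 6.07-fold decrease (-2.60, SE 0.11, adjusted p = 1.63e-09). No TCR+MEKi culture overlapped the TCR group for either gene. Ccl1 read 1404, 1935 and 1614 FPKM (-1.77, SE 0.15, adjusted p = 8.89e-07).

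Ccl3 read 6564, 8154 and 6474 FPKM with the MEK inhibitor (log2 fold change -1.44, SE 0.12, adjusted p = 5.46e-07). Ccl4 read 6803, 8233 and 6587 FPKM (-1.31, SE 0.09, adjusted p = 1.36e-07). These were the smallest decreases of the 5, and the cultures stayed below all TCR cultures. After quantile normalisation, which compresses the few most abundant mRNAs, both fell short of 2-fold (-0.81 for Ccl3 and -0.32 for Ccl4). Cxcl10 went the other way, to 6.0, 4.94 and 5.47 FPKM, all above the highest TCR culture (3.52). Its rise was 2.02-fold (log2 fold change 1.02, SE 0.21, adjusted p = 0.00167), and it fell short of 2-fold without TCR replicate 2 (0.83), without TCR+MEKi replicate 1 (0.95), with a pseudocount of 1 (0.82) and after quantile normalisation (0.93).

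**Figure D2:**
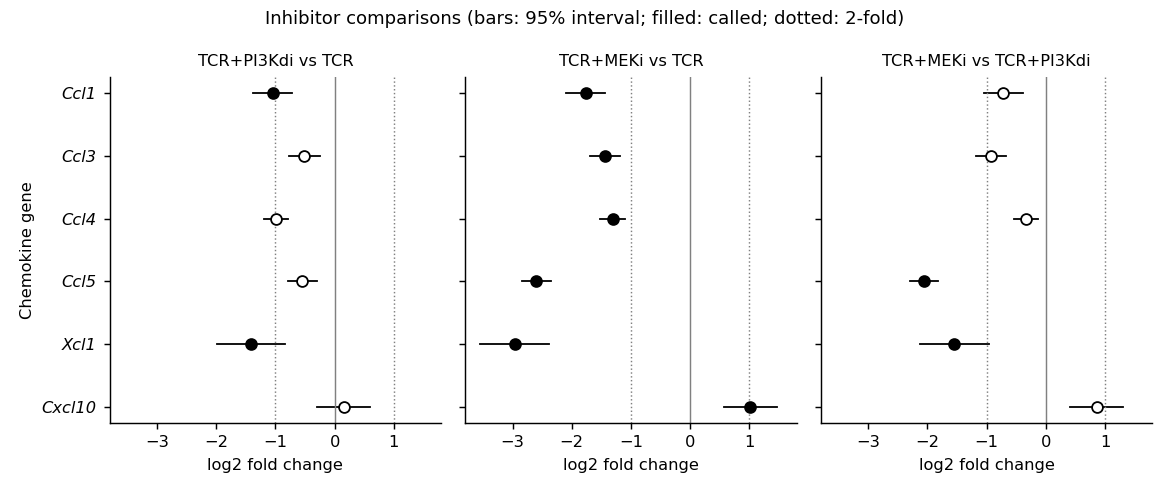
Log2 fold changes of the 6 genes in the 3 inhibitor comparisons, with points for the estimate, bars for the 95% interval, filled points for called genes and dotted lines at 2-fold. Against TCR alone the PI3K inhibitor changes run from -1.41 (Xcl1) to 0.15 (Cxcl10) and those of the MEK inhibitor from -2.96 (Xcl1) to 1.02 (Cxcl10). The intervals rest on a spread pooled over all 4 groups, Unstimulated cultures included.

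Set directly against each other, the inhibitors differed for each of the 6 by adjusted p, beside 28.9% of all genes, with 5 lower and Cxcl10 higher under MEK inhibition. Past the fold threshold were Ccl5 (log2 fold change of TCR+MEKi against TCR+PI3Kdi -2.06, SE 0.11, adjusted p = 1.62e-08) and Xcl1 (-1.55, SE 0.27, adjusted p = 0.000607), so 2 of the 6 were called lower, beside 1.71% of all genes (3.09% in either direction). Ccl3 (-0.93, adjusted p = 4.29e-05) and Ccl1 (-0.72, adjusted p = 0.00285) were lower by less than 2-fold. Ccl3 passed the threshold without TCR+MEKi replicate 2 (-1.04). Ccl4 differed least (-0.33, SE 0.09, adjusted p = 0.0174), and after quantile normalisation its sign turned (0.10). Cxcl10 was higher with the MEK inhibitor (0.86, SE 0.21, adjusted p = 0.00619), and passed the threshold without TCR+PI3Kdi replicate 1 (1.01).

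Neither inhibitor brought the chemokines back to the Unstimulated level. Against Unstimulated cells, all 6 were called higher with the PI3K inhibitor, beside 7.16% of all genes, and all 6 with the MEK inhibitor, beside 6.95%. The smallest of these differences were those of Cxcl10 (log2 fold change 1.47 with the PI3K and 2.33 with the MEK inhibitor) and of Ccl5 with the MEK inhibitor (2.41). Xcl1 was still higher by 10.64 on the log2 scale with the MEK inhibitor.

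A share of the TCR rise kept was computed for each inhibitor culture as its level minus the mean Unstimulated level, divided by the mean rise. With the PI3K inhibitor Ccl3 kept 70.2% ± 3.90 (SD, n = 3), Ccl5 67.5% ± 7.19, Ccl4 50.4% ± 2.96, Ccl1 48.3% ± 3.34 and Xcl1 37.6% ± 2.13. With the MEK inhibitor Ccl4 kept 40.3% ± 5.01, Ccl3 37.0% ± 4.96, Ccl1 29.5% ± 4.79, Ccl5 13.8% ± 2.12 and Xcl1 13.1% ± 3.42. Ccl5 stood 2nd of these 5 with the PI3K inhibitor and 4th under MEK inhibition, where its cultures overlapped those of Xcl1. In contrast Cxcl10 was at 117% ± 40.1 and 263% ± 31.3 of its small rise. The SDs hold the spread of the inhibitor cultures only, and these shares were not tested.

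**Figure D3:**
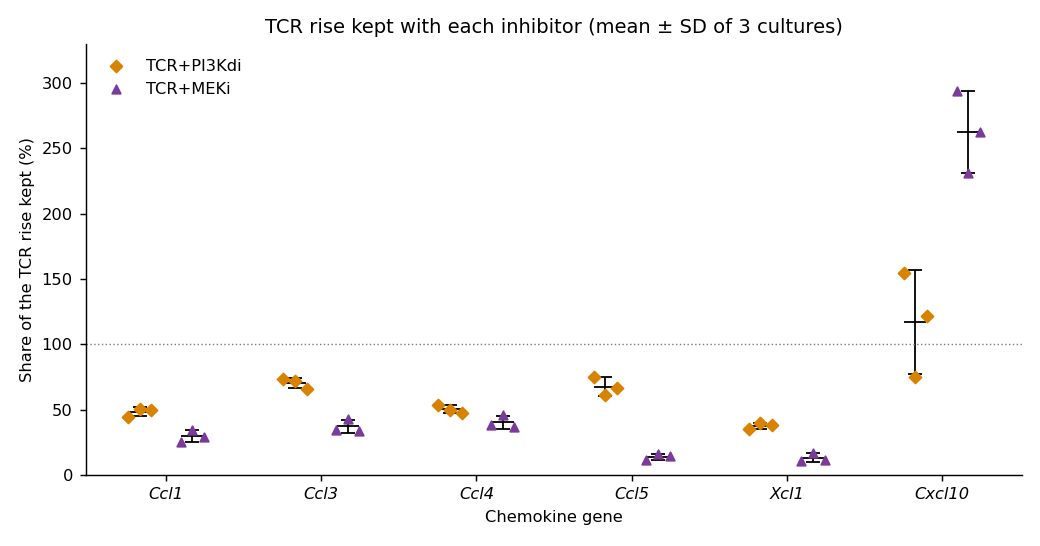
Share of the TCR rise kept in each inhibitor culture, in percent, with points for cultures, a line and bar for mean ± SD of 3 and a dotted line at 100%. Ccl5 keeps 67.5% under PI3K and 13.8% under MEK inhibition, while Ccl4 keeps 50.4% and 40.3%.

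The make-up of the chemokine mRNA therefore shifted with each condition. Of the summed FPKM of the 6, Ccl5 took 29.9% ± 3.18 in Unstimulated cells and 1.00% ± 0.0509 after TCR stimulation, while Ccl3 went from 11.1% ± 1.52 to 38.4% ± 0.161 and Xcl1 from 0.935% ± 0.514 to 13.4% ± 0.573. With the PI3K inhibitor Ccl3 took 47.9% ± 0.821 of 27944 ± 1085 FPKM. With the MEK inhibitor Ccl4 took 42.7% ± 0.867, Ccl3 41.9% ± 0.297 and Xcl1 5.12% ± 0.627 of 16884 ± 2311 FPKM. The 6 genes made up 4.96% of all FPKM in TCR+PI3Kdi cells and 3.17% in TCR+MEKi cells.

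Ratios within a culture do not depend on the scaling between libraries. Ccl3 to Ccl4 stood at 0.205 ± 0.0437 in the Unstimulated, 1.07 ± 0.0242 in the TCR, 1.49 ± 0.0415 in the TCR+PI3Kdi and 0.979 ± 0.0131 in the TCR+MEKi cultures. The ranges of these 4 groups did not overlap. Xcl1 to Ccl1 was 1.20 ± 0.107, 0.929 ± 0.0201 and 0.525 ± 0.0549 in the TCR, TCR+PI3Kdi and TCR+MEKi groups, also without overlap, so Xcl1 was the more abundant of the pair in all TCR cultures and the less abundant in all inhibitor cultures. Between groups of 3 cultures an exact permutation test could not pass 0.05, and none was run on these ratios.

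**Figure D4:**
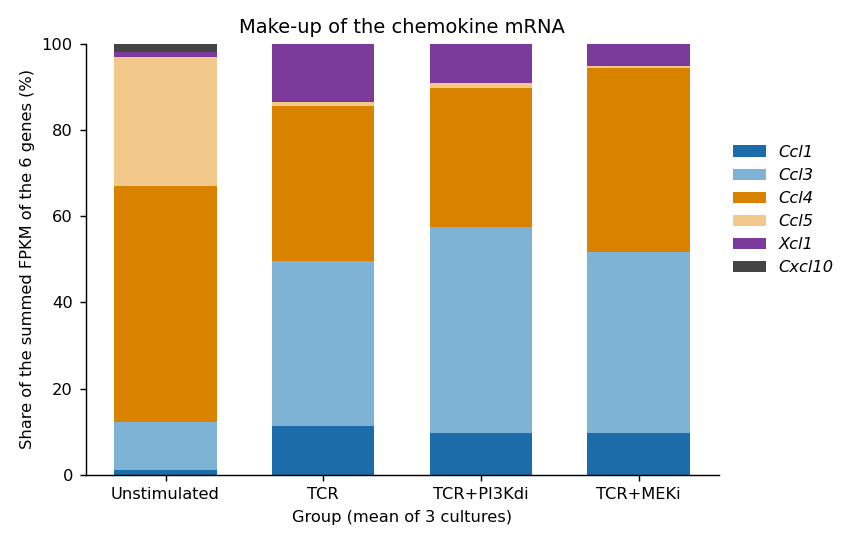
Mean share of each gene in the summed FPKM of the 6, in percent, stacked for the 4 groups (3 cultures each). Ccl5 shrinks from 29.9% in Unstimulated to 1.00% in TCR cells, and Ccl3 and Ccl4 together make up most of the sum in every stimulated group.

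The table held 5 further chemokine ligand genes out of 41 looked for, namely Ccl9, Ccl12, Ccl22, Ccl25 and Cxcl16. After TCR stimulation 4 of the 5 were called higher, all but Ccl25, beside 8.87% of all genes. Ccl9 (MIP-1γ), which lies 42400 bases from Ccl5, was listed at 0 in all Unstimulated cultures and read 126, 125 and 112 FPKM in the TCR cultures, at least 1392-fold higher when set against 3 reads per Unstimulated library. With the PI3K inhibitor it read 40.2, 47.6 and 39.0 FPKM (a log2 change of -1.52, SE 0.09, adjusted p = 5.16e-08) and under MEK inhibition 38.2, 39.7 and 34.3 FPKM (-1.69, SE 0.09, adjusted p = 4.3e-09). The inhibitor groups overlapped for Ccl9 (-0.17, 95% interval -0.36 to 0.01, adjusted p = 0.152).

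The remaining ligands were below 6 FPKM in every culture. Cxcl16 read 0.84, 0.78 and 0.79 FPKM in the TCR cultures, 0.20, 0.08 and 0 with the PI3K inhibitor and 0.47, 0.77 and 0.71 with the MEK inhibitor. It was called lower only with the PI3K inhibitor (log2 fold change -2.36, adjusted p = 0.000136), and the inhibitors differed directly (2.07, adjusted p = 0.000242). Ccl22, listed at 0 in all Unstimulated cultures, read 0.62, 0.72 and 0.73 FPKM in the TCR group and was lower with both inhibitors, at 0.11, 0.11 and 0.33 FPKM and at 0.07, 0 and 0 FPKM. Ccl12 read 5.16, 2.82 and 4.0 FPKM in the TCR group, 2.05, 2.07 and 1.58 with the PI3K inhibitor (-1.002, close to the threshold, adjusted p = 0.0268) and 2.37, 1.17 and 2.86 with the MEK inhibitor, which overlapped the TCR group. Across the 5 genes, 4 were called lower under PI3K inhibition (all but Ccl25), beside 1.38% of all genes, and 2 under MEK inhibition (Ccl9 and Ccl22), beside 2.51%. Their few reads, about 4 for Cxcl16 in the Unstimulated libraries, limit these values.

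Receptors for these ligands were looked at as well. Cxcr3, the receptor of CXCL10, fell from a mean of 7.93 to 2.70 FPKM (-1.61, adjusted p = 2.69e-05) and was lower still with the MEK inhibitor at 1.18 FPKM (-1.04 against TCR, adjusted p = 0.00353). That last change is close to the 2-fold threshold. The TCR cultures read 1.98, 1.88 and 4.25 FPKM, so their mean leans on replicate 3, and those with the MEK inhibitor read 0.95, 1.30 and 1.29. Ccr1 rose with stimulation from 0.907 to 2.81 FPKM (1.53, adjusted p = 5.6e-07) and was 1.33 FPKM with the MEK inhibitor (-1.03, adjusted p = 0.000157).

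Cxcl10 was also set beside Ifng and the interferon-induced genes Irf1, Irf7, Gbp2, Isg15 and Ifit1. On TCR stimulation Ifng, which encodes interferon-γ, was called higher, from a mean of 72.4 to 29597 FPKM, while Irf1, Irf7 and Gbp2 were called lower (beside 11.1% of all genes) and Isg15 and Ifit1 did not pass both thresholds. Irf1, for example, averaged 54.5 FPKM before and 12.4 after peptide, a log2 change of -2.12 (SE 0.07, adjusted p = 2.09e-12). Cxcl10 thus rose where 3 of these genes fell. With the MEK inhibitor each of these genes differed from TCR by less than 2-fold, with log2 fold changes of 0.39 for Irf1 (adjusted p = 0.000738) and 0.73 for Irf7 (0.0061) and of -0.84 for Ifng (5.09e-06). With the PI3K inhibitor Gbp2 was called higher than in TCR cells, at a mean of 90.2 against 42.0 FPKM (1.10, SE 0.16, adjusted p = 0.000174), and the others differed by less than 2-fold.

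Genes within 250 kb of Ccl5, Ccl3 and Ccl4 that encode no chemokine were examined as well. Ap2b1, Taf15 and Heatr6 moved by less than 2-fold in each of the 6 comparisons, and their log2 fold changes on TCR stimulation were -0.30, 0.14 and 0.30. The chemokine genes between Taf15 and Heatr6 changed by 5.01 or more.

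**Figure D5:**
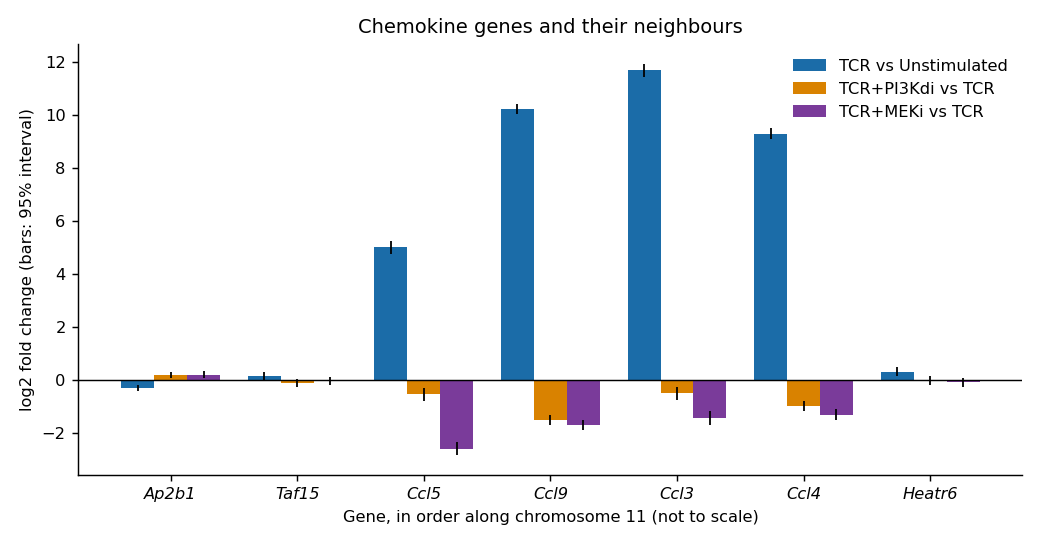
Log2 fold changes of 7 genes in their order along chromosome 11, with bars for TCR against Unstimulated and for each inhibitor against TCR and lines for the 95% interval. Ccl5, Ccl9, Ccl3 and Ccl4 rise by 5.01 to 11.68 while the 3 other genes stay between -0.30 and 0.30; the bar of Ccl9 depends on the 0.1 added to FPKM, because it was listed at 0 in Unstimulated cells.

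Across the 9 stimulated cultures, the genes whose FPKM followed each chemokine most closely were ranked among 9795 genes by Pearson's r. These cultures form 3 groups, so r mostly reflects the group means, and it is given as a description. Ccl4 was closest to Il31 (r = 0.998), Ifng (0.993) and Ado (0.992), and Xcl1 to Cd160 (0.997), Map2k3 (0.995) and F3 (0.995). Ccl5 was closest to Prkch (0.997), Dusp2 (0.995), a nuclear phosphatase of MAP kinases, and Slc45a3 (0.995). For Ccl3 the closest were A930015D03Rik (0.996), Pttg1ip (0.994) and Map2k3 (0.994), for Ccl1 Chchd4 (0.993), Plk3 (0.991) and Ralgds (0.991), and for Cxcl10 Phf12 (0.969), Mob3a (0.967) and Keap1 (0.963). Cd160 read 187, 99.3 and 48.4 FPKM on average in the TCR, TCR+PI3Kdi and TCR+MEKi groups and Dusp2 285, 249 and 88.4 FPKM. Both were picked by their correlation with Xcl1 and Ccl5 over these cultures, so a similar order of the groups follows from that choice. With the PI3K inhibitor Dusp2 changed by -0.19 on the log2 scale (limma, adjusted p = 0.122), and Ccl5 by -0.54.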

How the data were processed

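RNA was measured in 12 CTL cultures, 3 in each of 4 groups assigned by their treatment labels. The authors aligned 100-base paired-end reads to mm10 with STAR 2.4.2a, counted them per RefSeq gene with Subread 1.5.0, removed low-count genes, scaled by TMM in edgeR and deposited FPKM for 11022 genes. Raw counts were not used here, so depth was estimated from low values and GENCODE exon lengths, and 52.3% to 63.4% of 134 to 191 low values in a sample fell less than 0.15 from a whole number of reads.

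The 6 genes and all lists were chosen with earlier results of these data known. Group means were fitted by a linear model of log2(FPKM + 0.1) over all 11022 genes in limma 3.58.1 (R 4.3.3; lmFit, contrasts.fit, eBayes with trend), without a replicate term, and p-values were two-sided and Benjamini-Hochberg adjusted. For each gene the 4 groups share 1 estimate of the spread, so an SE also holds the spread of groups outside its comparison. The study used voom on counts. Genes were called at an adjusted p under 0.05 with more than 2-fold change. The procedure was tested on simulated data. Named genes were the 6, every other chemokine ligand of a fixed list in the table, receptors and interferon-induced genes from lists, and the 3 genes most correlated with each of the 6 among genes with a TCR mean of at least 1 FPKM. The neighbours on chromosome 11 and Dusp2 and Cd160 as examples were picked after their values were seen. Alternatives were pseudocounts of 1 and 0.01, a mean FPKM filter of 1, a common FPKM sum (TPM scale), quantile normalisation, a replicate block, the compared groups alone, no trend, no fold threshold and leaving out each replicate.

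Per the methods 3 mice gave the 3 replicates, and the sources do not say if equal numbers mark the same mouse. After removal of the group means, cultures with the same number correlated at 0.122 to 0.451 in every pair among the stimulated groups. Between TCR+MEKi and Unstimulated these correlations were 0.117 to 0.147. Against Unstimulated, pairs of the TCR and TCR+PI3Kdi groups went down to 0.0037 and -0.062. Each of the 12 cultures correlated best with a culture of its own number in another group. The numbers may thus pair the cultures, but only the replicate block used a pairing. Figures were drawn with Python 3.11.15. Promoter letters come from RefSeq. Some listed genes are not reported here.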

Additional observations from a re-analysis of the deposited data

How the results depend on the processing

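The direction of 540 log2 fold changes (6 genes, 6 comparisons, 15 alternatives each) was kept except for 2 that reversed, neither of them called: Cxcl10 with the PI3K inhibitor, which without single replicates ran from -0.037 (TCR replicate 2) to 0.35, and Ccl4 between the inhibitors after quantile normalisation (0.10). With the PI3K inhibitor 2 of the 6 genes were called. This became 1 on the TPM scale, 1 after quantile normalisation and 5 without a fold threshold, and leaving out single replicates gave 1 to 3. With the MEK inhibitor the 6 calls became 3 after quantile normalisation, which in the PI3K comparison set Ccl3 to a difference of 0 because it held the same rank in every culture of both groups. Between the inhibitors 2 calls became 6 without a fold threshold. With the replicate block the calls were 6, 2, 6, 2, 6 and 6 in the 6 comparisons, and no call of the 6 genes changed.

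The TPM scale moved the median gene by -0.41 for TCR against Unstimulated, 0.19 for TCR+PI3Kdi and 0.26 for TCR+MEKi against TCR, and changes are read relative to the median gene. It altered the split of all called genes from 978 higher and 1224 lower to 647 and 2276, from 55 and 152 to 119 and 107, and from 108 and 277 to 323 and 202. The median share of the TCR rise kept, 58.9% with the PI3K and 33.3% with the MEK inhibitor, became 67.0% and 39.9%, and without single replicates it ran from 56.8% to 62.9% and from 30.6% to 35.0%. With a pseudocount of 1 the called genes of the 6 comparisons fell to 1405, 90, 201, 150, 979 and 873, from 2202, 207, 385, 341, 1608 and 1478, and without a fold threshold they were 7559, 2818, 4090, 3185, 6887 and 6571. Depth limits Ccl1, Xcl1, Ccl22 and Cxcl16 in cells where they are low.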

Other observations

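In the TCR group replicate 1 held the highest value for all 5 of Ccl1, Ccl3, Ccl4, Ccl5 and Xcl1, and in the TCR+MEKi group replicate 2 did. The FPKM sum over all genes was also highest in TCR replicate 1, at 666922 against 620715 and 630551 in replicates 2 and 3. It was highest in TCR+MEKi replicate 2 as well, at 539350 against 524343 and 535307 in replicates 1 and 3. These sums include the 5 genes, and their part in this order was not tested. In the TCR+PI3Kdi group the highest values were split between replicate 1 (3 genes) and replicate 2 (2 genes). The coefficient of variation of these 5 genes was 12.4% to 26.1% with the MEK inhibitor, 5.56% to 10.2% with the PI3K inhibitor and 4.21% to 12.3% in the TCR group, and the widest was that of Xcl1 with the MEK inhibitor. Ifng was also highest in TCR replicate 1 (31000.0 FPKM) and in TCR+MEKi replicate 2 (18253 FPKM).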
